A study of Ovis aries with 48 samples.

Results

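Subcutaneous fat of female sheep exposed to excess testosterone before birth (prenatal T) was compared with subcutaneous fat of control females by small RNA sequencing. The libraries were those named in the labels as subcutaneous fat of the prenatal T cohort, 4 from prenatal T sheep (numbers 48, 185, 233 and 255) and 4 from control sheep (numbers 098, 131, 132 and 201), 8 of the 48 libraries of the series. The mothers of prenatal T sheep had been given 100 mg of testosterone propionate (about 1.2 mg per kg) in corn oil by repeated intramuscular injection between gestational days 30 and 90. The labels do not say what, if anything, was injected into the mothers of these 4 controls, and the ages of the sampled sheep are not given. Visceral, perirenal and epicardial fat of the same 8 sheep, and subcutaneous fat of 4 sheep exposed prenatally to bisphenol A (BPA, 0.5 mg per kg per day to the mother over the same days) and of their own 4 controls, whose mothers received corn oil, were used only to set values side by side. All sheep were described as co-housed on a maintenance diet.

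MicroRNAs are short RNAs that pair with messenger RNAs and lower their translation and stability. In fat, members of this class act on the formation of adipocytes from precursor cells, on insulin signalling and on inflammation. Small nucleolar RNAs (snoRNAs) guide chemical modification of ribosomal and spliceosomal RNA, small nuclear RNAs (snRNAs) form the spliceosome, and long non-coding RNAs (lncRNAs) include hosts of the shorter classes. Androgen excess in the womb is used in sheep as a model of the metabolic and reproductive features of polycystic ovary syndrome.

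No RNA passed the test between prenatal T and control subcutaneous fat. Of 4920 features listed in the 4 classes, 2572 had at least 1 read in these 8 libraries and 407 reached the mean of 5 normalised units needed to be tested, namely 71 microRNAs, 177 of 694 snoRNAs, 31 of 1148 snRNAs and 128 of 2973 lncRNAs. With limma and Benjamini-Hochberg adjustment within each class, 0 of the 407 (0.0%) had an adjusted p under 0.05. At an unadjusted p under 0.05 there were 12 (2.95% of those tested), 3 higher (0.737%) and 9 lower (2.21%) in prenatal T fat, and this count was 25 without control 132 and 6 without control 201. On recovered reads, edgeR's quasi-likelihood test called 2 features (0.491%), both microRNAs and both higher in prenatal T fat, and DESeq2 called 0. In 7 of 407 features (1.72%) the prenatal T and control sheep did not overlap. The median half-width of the 95% confidence interval was 0.87 on the log2 scale over all features and 0.74 over microRNAs. These intervals are unadjusted and give no limit of detection. With 4 sheep per group, changes of this size and larger ones could be missed. Of the 407 features, 20 differed by more than 1 in either direction, and 0 were called. In whole tissue, fewer cells of a type and less RNA per cell cannot be told apart.

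**Figure D1:**
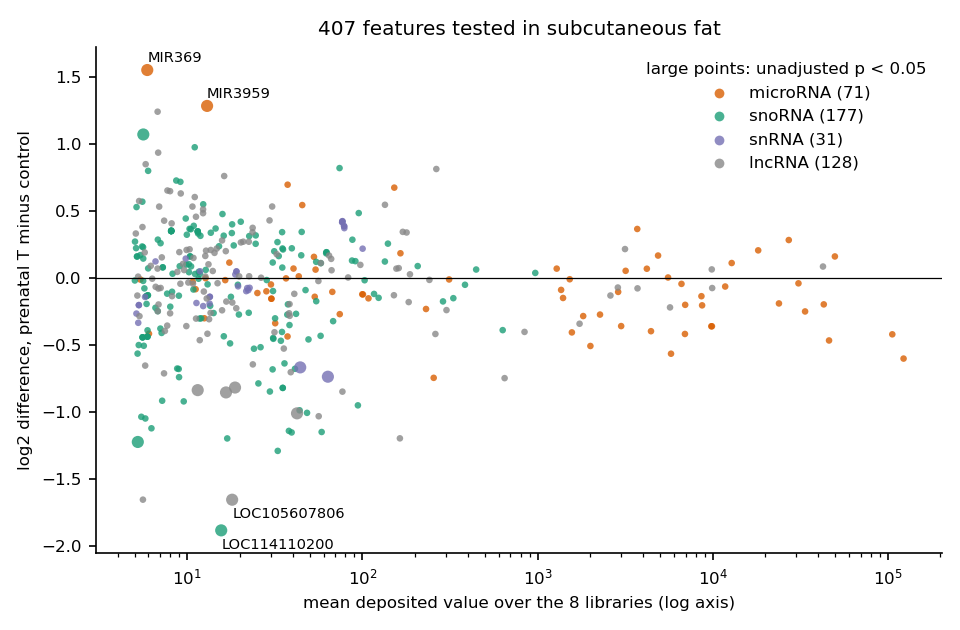
Difference between prenatal T and control subcutaneous fat on the scale log2(normalised value + 1), against the mean normalised value over the 8 libraries on a log axis, for 71 microRNAs, 177 snoRNAs, 31 snRNAs and 128 lncRNAs. Large points are the 12 features with an unadjusted p under 0.05. MIR369 (1.55) and MIR3959 (1.28) lie at the top, and the snoRNA LOC114110200 (-1.89) and the lncRNA LOC105607806 (-1.66) at the bottom, all at low levels.

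The prenatal T libraries were the shallower ones. They held 381319 to 740161 recovered reads (median 687204), against 788704 to 1004894 (median 882836) in control libraries. The groups did not overlap in depth (two-sided exact permutation p = 0.0286, the smallest that 4 against 4 allows). All 4 prenatal T libraries and 3 of the control libraries carried library numbers of the early set (up to 48), while control 201 carried a number of the later set (from 81). Removing control 201 is therefore the same as comparing within the early set. Control 201 had the highest value of the 8 libraries in 82 of the 407 tested features, 46 of them snoRNAs, and the lowest in 69. Named differences that control 201 moved by more than 1.5 times are given with and without it below.

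MicroRNAs made up 86.2%, 85.5%, 87.04% and 88.04% of reads in prenatal T sheep 48, 185, 233 and 255, against 84.98%, 85.8%, 88.8% and 84.7% in control sheep 098, 131, 132 and 201. SnoRNAs took 1.14%, 0.835%, 0.738% and 0.859% of reads in the prenatal T sheep, against 1.15%, 1.34%, 0.770% and 1.999% in the controls. Control 201, the library of the later set, had the highest snoRNA share, and the remaining controls overlapped the prenatal T sheep. The snoRNA share differed by -0.423 percentage points (two-sided exact permutation p = 0.171, adjusted over the 4 classes 0.686), and by -0.196 without control 201 (exact p = 0.343). Differences were -0.0117 percentage points for snRNAs (exact p = 0.771), -0.191 for lncRNAs (exact p = 0.800) and 0.626 for microRNAs (exact p = 0.571). None of the 4 shares differed by more than the spread between sheep.

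**Figure D2:**
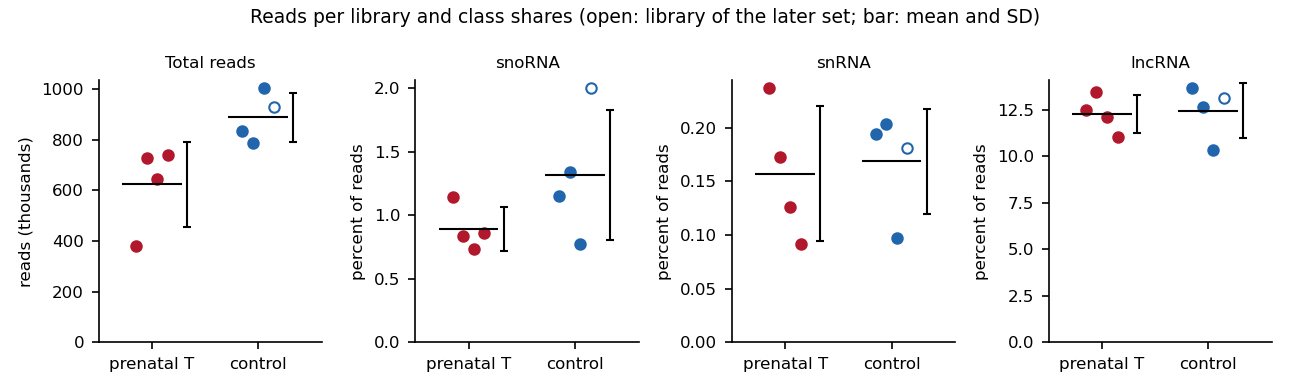
Recovered reads per library, and percent of reads in snoRNAs, snRNAs and lncRNAs, for each prenatal T sheep (red) and control sheep (blue); the open point is control 201, bars show the mean and SD (n = 4 each). Prenatal T libraries lie between 381319 and 740161 reads, all below the controls, while the class shares overlap.

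The microRNA nearest to a call, MIR3959, was higher in prenatal T fat. MIR3959 had 21.8, 17.5, 18.3 and 17.02 normalised units in prenatal T sheep 48, 185, 233 and 255, against 4.71, 10.2, 7.28 and 6.90 units in control sheep 098, 131, 132 and 201. Every prenatal T sheep lay above every control. The means were 18.7 ± 2.15 units in prenatal T fat and 7.29 ± 2.28 units in control fat (SD, n = 4 each), a difference of 1.28 on the log2(value + 1) scale (SE 0.30, 95% interval 0.64 to 1.92). Its limma adjusted p was 0.0535, just outside the threshold, and its edgeR adjusted p was 0.0247. These values rested on 10, 17, 23 and 21 reads in prenatal T libraries and on 5, 9, 10 and 8 reads in control libraries.

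MIR369 showed the larger difference of the pair. MIR369 had 10.9, 10.3, 11.9 and 4.05 units in the prenatal T sheep, against 2.83, 1.14, 4.37 and 1.73 units in the controls. Prenatal T sheep 48, 185 and 233 were above all controls, and prenatal T sheep 255 lay just under control 132, so the groups overlapped by 1 sheep. The difference was 1.55 (SE 0.38, 95% interval 0.72 to 2.38, limma adjusted p = 0.0535, edgeR adjusted p = 0.0400). It rested on 5, 10, 15 and 5 reads in prenatal T libraries and on 3, 1, 6 and 2 reads in control libraries. MIR369 had a mean of 9.30 units in prenatal T fat and 2.51 units in control fat. It reached the filter of 5 units through the prenatal T sheep, and was not tested with a filter of 10. Without control 201, the differences were 1.27 for MIR3959 and 1.46 for MIR369, with a limma adjusted p of 0.213 for each and 0 edgeR calls.

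**Figure D3:**
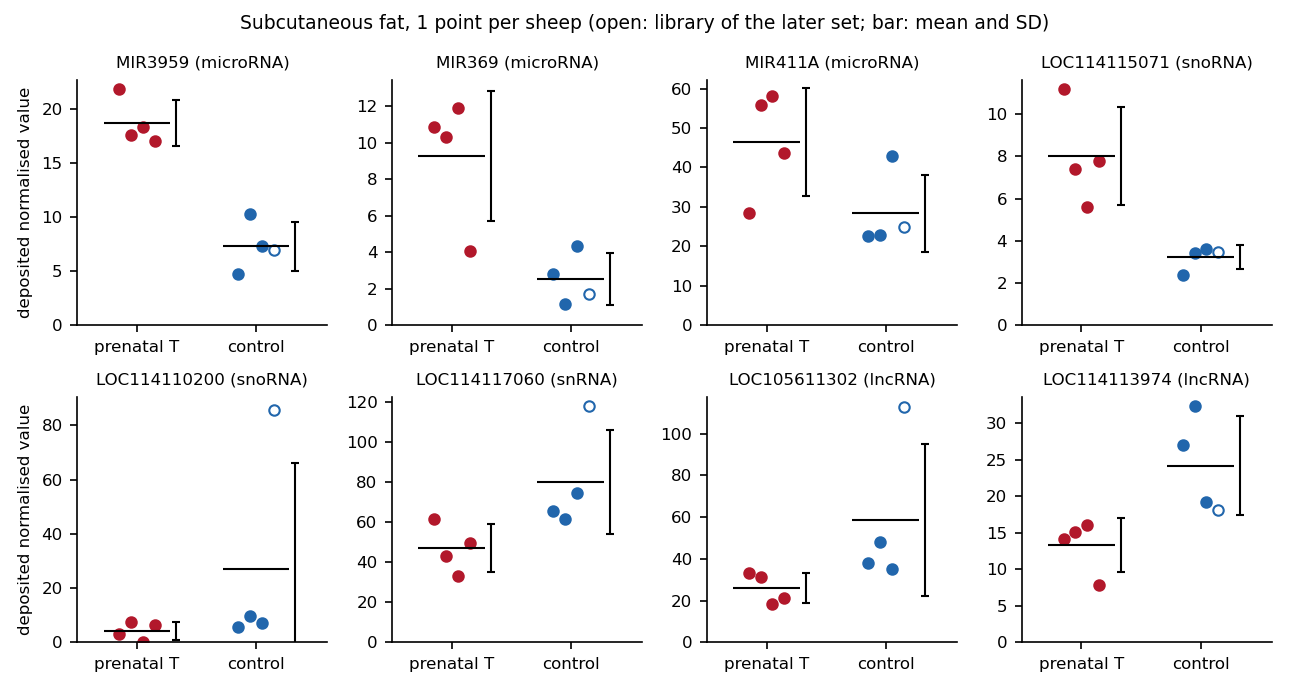
Normalised values of 8 features in subcutaneous fat, 1 point per sheep with prenatal T on the left and control on the right; bars are mean and SD (n = 4 each, cut at 0) and the open point is control 201, the library of the later set. MIR3959 is at 17.02 to 21.8 in prenatal T sheep, against 4.71 to 10.2 in controls, while the snoRNA LOC114110200 and the lncRNA LOC105611302 have their highest value in control 201.

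Both microRNAs belong to the large microRNA cluster of the imprinted DLK1-DIO3 domain, where the non-coding RNAs are made from the maternal chromosome and DLK1, a secreted inhibitor of adipocyte formation, from the paternal one. In the RefSeq table (assembly ARS-UI_Ramb_v3.0) they lie on chromosome 18, inside the lncRNA gene LOC105606646 and between RTL1 and DIO3. Of 54 microRNAs of the domain that are listed, 24 were tested and 30 were below the mean of 5 units. On the deposited scale, 10 of the 24 had a positive and 14 a negative difference, the median was -0.01 beside -0.11 over all 71 microRNAs tested, and 0 passed the limma test. The split depended on the scaling and on control 201. With libraries set to equal microRNA reads, 20 were positive and 4 negative (median 0.24, beside 0.16 over all 71), with edgeR 15 and 9 (median 0.15, beside 0.03), and without control 201 17 and 7 (median 0.10, beside -0.15). The domain took 0.312% to 0.718% of microRNA reads in prenatal T sheep, against 0.361% to 0.669% in controls.

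Among the other microRNAs of the domain, MIR411A had 28.3, 55.7, 58.1 and 43.8 units in the prenatal T sheep, against 22.6, 22.8, 42.95 and 25.01 units in the controls. Prenatal T sheep 48 and control 132 lay within the other group's range, and the difference of 0.69 (SE 0.34) did not pass the test (limma adjusted p = 0.997). MIR380, from the same stretch of the cluster, differed by 0.54 (SE 0.31) and MIR323A by -0.42 (SE 0.31), both with a limma adjusted p of 0.997. MIR127, which is transcribed antisense to the retrotransposon-derived gene RTL1 and is the most abundant of the domain here, had 1222, 1874, 1979 and 1376 units in prenatal T sheep and 1496, 1752, 1608 and 3277 units in controls. Its highest value was in control 201. LOC105606646 itself had 120 to 231 units in prenatal T sheep, against 119 to 244 units in controls, again with control 201 at the top. Of 33 listed snoRNAs inside LOC105606646, 32 were below the filter. The exception, LOC114109215, had 1.30 to 5.61 units in prenatal T sheep and 0.683 to 2.37 units in control sheep 098, 131 and 132, but 38.7 units in control 201. It reached the filter only through control 201.

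**Figure D4:**
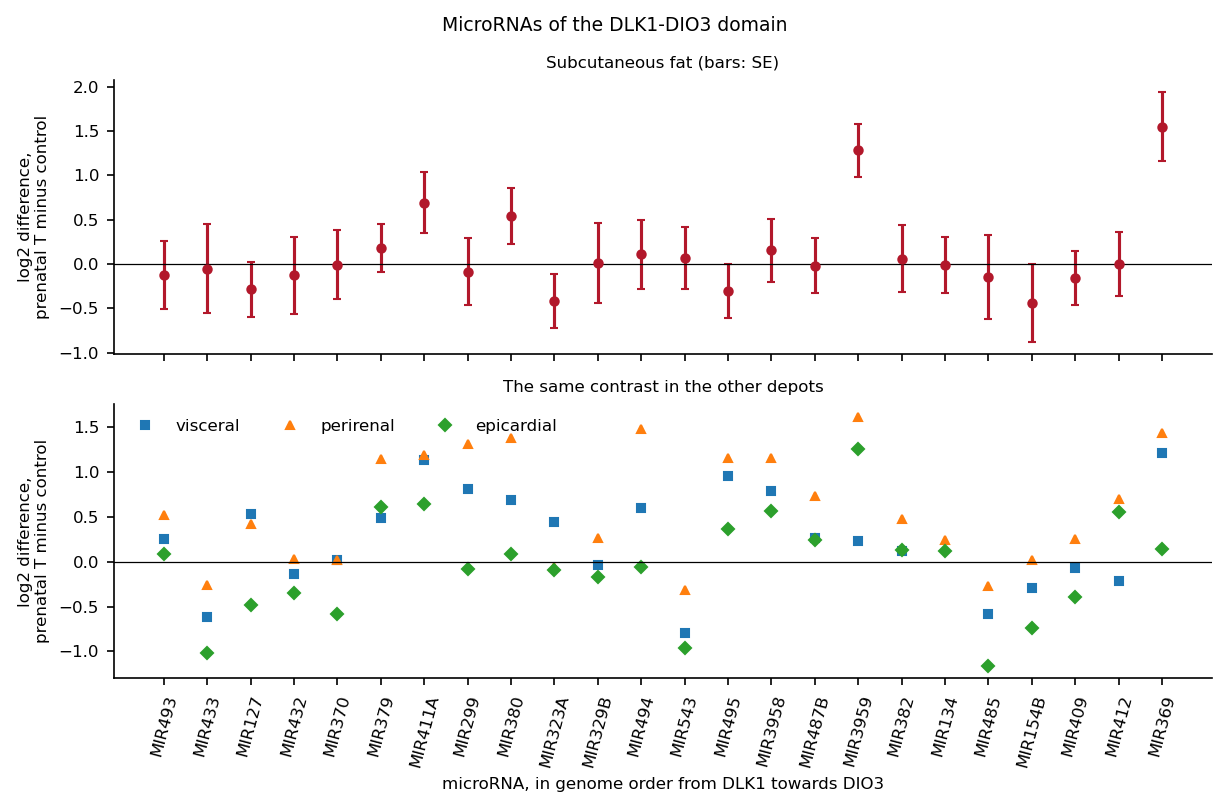
Difference between prenatal T and control sheep on the log2(normalised value + 1) scale for the 24 tested microRNAs of the DLK1-DIO3 domain, in genome order. The upper panel shows subcutaneous fat with SE bars, with MIR3959 at 1.28 and MIR369 at 1.55 apart from the others, which lie between -0.44 and 0.69; the lower panel shows visceral, perirenal and epicardial fat.

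The same contrast was set beside that of the other depots of the same sheep. MIR3959 differed by 0.23 (SE 0.74) in visceral, 1.61 (SE 0.84) in perirenal and 1.26 (SE 0.52) in epicardial fat, and none of these passed the limma test. In perirenal fat MIR3959 had 97.1, 117.6, 177.1 and 312.4 units in prenatal T sheep 48, 185, 233 and 255, against 5.51, 81.02, 104.3 and 130.4 units in controls 098, 131, 132 and 201. The lowest of these, control 098, was the perirenal library of the later set, and the other controls overlapped the prenatal T sheep. In epicardial fat MIR3959 had 94.8 and 252.8 units in prenatal T sheep 185 and 255, whose libraries were of the early set. Prenatal T sheep 48 and 233, of the later set, had 41.1 and 42.7 units. Epicardial controls, all of the later set, had 20.8 to 47.7 units. The part of the library set in the epicardial difference was not tested. Levels cannot be compared between depots, since the authors scaled each depot separately. MIR369 differed by 1.21 (SE 0.53) in visceral, 1.43 (SE 0.55) in perirenal and 0.14 (SE 0.30) in epicardial fat.

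Whether the subcutaneous effect differed from that of another depot was tested as an interaction over the 32 libraries of the cohort. The difference of effects for MIR3959 was 1.05 (SE 1.004) against visceral, -0.33 (SE 1.004) against perirenal and 0.02 (SE 1.004) against epicardial fat. For MIR369 it was 0.34 (SE 0.65), 0.12 (SE 0.65) and 1.41 (SE 0.65). None of the 441 features tested in this fit differed between depots at a limma adjusted p under 0.05 (0.0% for each depot). At an unadjusted p under 0.05 there were 19 (4.31%) against visceral, 8 (1.81%) against perirenal and 15 (3.40%) against epicardial fat. The fits of the other depots called 0 of 410 features in visceral, 0 of 471 in perirenal and 3 of 431 (0.696%) in epicardial fat. These fits held no library set term. In epicardial fat all controls were of the later set, against 2 early and 2 later prenatal T libraries, so treatment and library set were partly confounded there.

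In subcutaneous fat of the BPA cohort, the difference between BPA and control sheep was -0.86 (SE 0.45) for MIR3959 and -0.58 (SE 0.59) for MIR369, and 0 of 477 features were called by limma (0.0%; 25 at an unadjusted p under 0.05, 5.24%). Of 23 microRNAs of the DLK1-DIO3 domain tested there, 2 had a positive and 21 a negative difference (median -0.40). The split over all microRNAs of that cohort is not given here, and no other scaling was fitted to it. In the prenatal T cohort such a split moved with the scaling, so this count is not read as a change of the domain. Control 908 was of the early library set, and the other libraries of this comparison were of the later set. The cohorts were normalised in separate tables and have no sheep in common, and the difference between them was not tested.

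The let-7 family, microRNAs abundant in differentiated cells that repress growth factor and insulin signalling genes, was the largest part of every library. Its 7 members took 61.7%, 54.9%, 43.2% and 43.04% of microRNA reads in prenatal T sheep 48, 185, 233 and 255, against 56.7%, 62.6%, 42.2% and 64.6% in control sheep 098, 131, 132 and 201. Prenatal T sheep 233 and 255 and control 132 formed the low end, so the groups overlapped over nearly the whole range. MIRLET7A had 166019, 113107, 58965 and 66773 units in the prenatal T sheep, against 150466, 168327, 92154 and 168873 units in the controls, a difference of -0.60 (SE 0.37, limma adjusted p = 0.997). The median over the 7 members was -0.42, with 6 negative, and 0 were called. Scaled to equal microRNA reads per library, the median was -0.16, with 4 of 7 negative.

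Several abundant microRNAs divided the same 8 sheep in the same way, across treatment. MIR148A, which promotes adipocyte formation in human precursor cells, had 1377, 1811, 5383 and 8736 units in prenatal T sheep 48, 185, 233 and 255, against 2110, 2272, 9938 and 2046 units in control sheep 098, 131, 132 and 201. MIR21, a microRNA associated with inflammation and fibrosis, had 440, 573, 2056 and 2442 units in prenatal T sheep and 857, 775, 3111 and 934 units in controls. Prenatal T sheep 233 and 255 and control 132 were again apart from the other sheep, here as the high ones. MIR143, expressed in smooth muscle and raised during adipocyte differentiation, took 7.005% and 7.38% of microRNA reads in prenatal T sheep 233 and 255 and 7.26% in control 132, and 2.11% to 4.37% in the other 5 sheep. MIR150, a lymphocyte microRNA, ran the other way, with 0.138% and 0.166% in prenatal T sheep 233 and 255, 0.128% in control 132, and 0.311% to 0.531% in the others. The snRNA share moved with it, at 0.126% and 0.0921% of reads in prenatal T sheep 233 and 255 and 0.0969% in control 132, against 0.173% to 0.237% in the others; the part of depth, RNA quality or cell composition in this division was not tested.

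**Figure D5:**
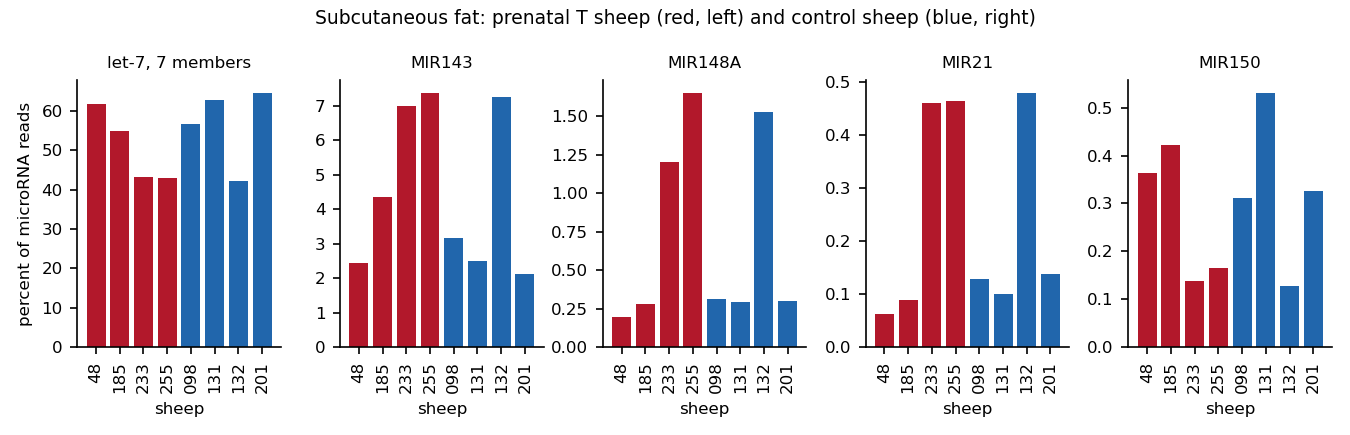
Percent of microRNA reads taken by the let-7 family (7 members), MIR143, MIR148A, MIR21 and MIR150 in subcutaneous fat, 1 bar per sheep, with prenatal T sheep in red on the left and controls in blue on the right. Prenatal T sheep 233 and 255 and control 132 have the lowest let-7 share (42.2% to 43.2%) and the highest MIR148A share (1.20% to 1.65%).

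In visceral fat the let-7 share was also lowest in prenatal T sheep 233 (44.004%) and 255 (35.1%), and control 132 (55.8%) was the lowest of the controls. In perirenal fat prenatal T sheep 233 and 255 had 39.9% and 25.0%, while control 132, at 45.8%, lay above control 201 at 43.6%. In epicardial fat prenatal T sheep 233 had the highest share of the prenatal T sheep (49.3%), so the order of sheep did not hold in that depot.

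Correlations of log2 values between libraries were taken across the 71 tested microRNAs, which are not independent replicates. The median Pearson r was 0.981 among prenatal T libraries (6 pairs), 0.987 among controls (6 pairs) and 0.985 between the groups (16 pairs). The highest r of a pair from different groups was 0.995, between prenatal T sheep 255 and control 132.

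The lists of microRNAs by known role held no called member. Because the scaling alone moved the median of all 71 microRNAs by more than 0.1, to 0.16 when libraries were set to equal microRNA reads against -0.11 on the deposited scale, the direction of most lists depended on it. MicroRNAs that promote adipocyte formation (14 tested, 3 positive) had a median of -0.10 as deposited and 0.17 at equal reads. Those that oppose it (10 tested, 2 positive, 7 of them let-7) had -0.32 and -0.05. MicroRNAs tied to insulin action and glucose handling (16 tested, 2 positive) had -0.17 and 0.09. Those regulated by androgen in the human prostate (7 tested, 3 positive) had -0.15 and 0.12. MicroRNAs of matrix and fibrosis (6 tested, 1 positive) had -0.15 and 0.11. Those of the proliferation-associated MIR17 and MIR106 clusters with MIR16 (4 of 6 listed members tested, 0 positive) had -0.27 and -0.002. The inflammation pair, MIR21 and MIR150, had a median of -0.33 and -0.06.

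Individual microRNAs stayed within the spread between sheep, whether list members or, as MIR191 and MIR374B, in no list and named by p alone. MIR106B, which lies in MCM7, the gene of a DNA replication factor, had 1774, 1349, 1048 and 1211 units in prenatal T sheep, against 1759, 1882, 1235 and 2308 units in controls (difference -0.41, SE 0.29, limma adjusted p = 0.997). MIR191 differed by -0.42 (SE 0.29) and MIR374B, on chromosome X, by 0.67 (SE 0.39), both with a limma adjusted p of 0.997, and without control 201 MIR374B differed by 0.44 (SE 0.41). MIR26A, which promotes browning of human adipocytes, had 23796 to 34103 units in prenatal T sheep and 30388 to 41383 units in controls. MIR221, raised in inflamed and obese fat, had 2261 to 3120 units in prenatal T sheep and 2456 to 4849 units in controls. MIR10A and MIR10B, which lie in the HOXB and HOXD clusters and mark body position, had a median difference of 0.26 on the deposited scale and -0.07 without control 201, which had 1659 units of MIR10A, against 2615 to 5952 units in the other controls. MIR181A-1 and MIR181A-2, 2 loci of the same mature microRNA, had nearly the same values in each library (5700 to 10850 and 5721 to 10946 units in prenatal T sheep), and their reads cannot be assigned to one locus.

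The labelled tissue was checked against microRNAs typical of cell types. The adipocyte microRNAs MIR103, MIR107, MIR143 and MIR148A were present in all 8 libraries and together took 2.84% to 9.46% of microRNA reads in prenatal T sheep, compared with 2.61% to 9.19% in control sheep. Most of this was MIR143, which smooth muscle also expresses, with 2.44% to 7.38% in prenatal T sheep and 2.11% to 7.26% in control sheep. Striated muscle was represented by MIR133 alone, with 0.0132% to 0.0497% in prenatal T sheep, against 0.0268% to 0.0881% in control sheep, and its highest value, 679 units, was in control 131 (difference -0.75, SE 0.54, limma adjusted p = 0.997). Of the epithelial microRNAs, MIR200C was tested, with 4.77 to 13.8 units in prenatal T sheep and 5.10 to 21.6 units in controls, and MIR200A and MIR200B were below the filter. None of the markers looked up for myeloid cells, endothelium, erythroid cells, neurons and brown fat was among the listed microRNAs, so these could not be assessed.

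Among snoRNAs, 3 of 177 (1.69%) had an unadjusted p under 0.05, and the smallest limma adjusted p was 0.945. LOC114115071, a snoRNA in the host gene MATR3, a nuclear matrix RNA-binding protein, had 11.2, 7.41, 5.61 and 7.78 units in the prenatal T sheep, against 2.37, 3.41, 3.62 and 3.47 units in the controls. The groups did not overlap, the difference was 1.07 (SE 0.40), and the values rested on 4 to 7 reads in prenatal T libraries and 3 to 6 reads in controls. LOC114109245, in the translation factor gene EIF5, differed by 0.72 (SE 0.36), with overlap of prenatal T sheep 48 and control 132.

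The lower snoRNAs leaned on control 201. LOC114110200, which lies in the host gene LOC114110053 between WDR74 and SLC3A2, had 3.19, 7.41, 0 and 6.49 units in the prenatal T sheep, against 5.53, 9.56, 7.25 and 85.5 units in the controls. The early controls overlapped the prenatal T sheep, and the difference was -1.89 (SE 0.86) with control 201 and -1.04 (SE 0.73) without it. LOC114113420 had 1.40 to 3.19 units in prenatal T sheep and 4.53 to 17.3 units in controls, a difference of -1.23 (SE 0.53). It fell under the filter without control 201 and was then not tested, although its 3 early controls (4.53 to 5.46 units) were also above all prenatal T sheep. LOC114115086, in the elongation factor gene EEF2 and named here after its values were seen, had 3.89 to 7.98 units in prenatal T sheep and 9.06 to 13.7 units in controls, with no overlap (difference -0.68, SE 0.34).

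Among snRNAs, LOC114117060 and LOC114117093, neighbouring genes beside RAD51C on chromosome 11, had the smallest p. LOC114117060 had 61.7, 43.4, 33.2 and 49.8 units in the prenatal T sheep, against 65.5, 61.6, 74.8 and 118 units in the controls. Only prenatal T sheep 48 reached into the range of the controls. The difference was -0.74 (SE 0.35, limma adjusted p = 0.581), and -0.54 (SE 0.24) without control 201. LOC114117093 had 43.9, 27.4, 24.3 and 39.1 units in prenatal T sheep and 49.3, 40.5, 47.2 and 81.5 units in controls (difference -0.67, SE 0.32, limma adjusted p = 0.581). In subcutaneous fat of the BPA cohort the corresponding differences were 0.57 (SE 0.27) and 0.72 (SE 0.24). SnRNA genes occur in near-identical copies, 8 of the 31 tested had the same values as another in all 8 libraries, and these 2 genes may share reads. LOC114117116 and LOC114117113, 2 of 7 such copies with nearly equal values, had 74.3 to 96.0 units in prenatal T sheep and 72.5 to 91.1 units in the early controls, against 33.1 units in control 201 (differences 0.42, SE 0.37, for both). Without control 201 the differences were 0.11 (SE 0.18) for both.

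Among lncRNAs, all 5 features with an unadjusted p under 0.05 (3.91% of 128) were lower in prenatal T fat, and the smallest limma adjusted p was 0.999. LOC105611302 had 33.1, 31.2, 18.5 and 21.4 units in the prenatal T sheep, against 38.2, 48.1, 35.3 and 112.8 units in the controls. All prenatal T sheep were below all controls, and control 201 stood far above the rest. The difference was -1.01 (SE 0.41), and -0.65 (SE 0.34) without control 201. In the RefSeq table this gene overlaps the snoRNAs LOC114116235 and LOC114116285, and its reads came to 1 to 1.09 times their summed reads in each library, so reads of the lncRNA and of the snoRNAs inside it cannot be told apart.

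LOC114113974 had 14.2, 15.1, 16.0 and 7.89 units in the prenatal T sheep, against 27.1, 32.3, 19.2 and 18.1 units in the controls. The groups did not overlap, and the difference of -0.82 (SE 0.33) was -0.94 (SE 0.35) without control 201. LOC105607806, which overlaps a glycine transfer RNA gene and HES7, had 1.57, 11.3, 6.17 and 11.3 units in prenatal T sheep and 9.55, 11.04, 56.4 and 36.9 units in controls. Controls 132 and 201 were the high ones and the others overlapped the prenatal T sheep (difference -1.66, SE 0.62). LOC101111367 differed by -0.84 (SE 0.38) and LOC114116066 by -0.86 (SE 0.39), with overlapping groups in both.

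LOC114116957, in the gene of the endoplasmic reticulum stress sensor ERN1, had 556, 469, 361 and 471 units in prenatal T sheep and 686, 994, 426 and 1224 units in controls (difference -0.75, SE 0.35). Its reads were 1 to 1.007 times those of the snoRNA LOC114117067 inside it, so reads of the lncRNA and the snoRNA cannot be told apart. The snoRNA had 562, 612, 411 and 540 units in prenatal T sheep and 680, 860, 381 and 1015 units in controls. Size factors were set per class, so nearly the same reads gave different units. The difference of -0.75 holds for the lncRNA scaling only. LOC106990385, named after its values were seen, had 51.8 to 65.39 units in prenatal T sheep and 65.42 to 77.6 units in the early controls, against 858 units in control 201. Its difference was -1.20 (SE 0.68) with that library and -0.31 (SE 0.30) without it.

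Much of the lncRNA signal came from a few features. LOC114118399 alone took 45.2% to 53.3% of lncRNA reads in prenatal T sheep, against 41.4% to 50.4% in controls. A further 17.02% to 20.5% in prenatal T sheep, against 18.1% to 21.1% in controls, fell in 9 lncRNAs that overlap a listed microRNA, and LOC105611269, the second most abundant, had 1.04 to 1.07 times the reads of MIR181A-2 inside it.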

How the data were processed

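Small RNA libraries were prepared from total RNA of sheep fat using a kit for small RNAs (per the labels' protocols). The submitters' processing notes name cutadapt 3.2, featureCounts 1.6.1 and STAR 2.6.0c. Of the genome build, nothing is stated in the labels or file headers. Deposited values are a non-negative signal, read counts divided by a size factor that the authors set per library within each depot and RNA class. In the 8 subcutaneous libraries of the prenatal T cohort this factor equalled the median-of-ratios factor. That equality was not checked in the other depots or in the BPA cohort. 100% of the values in every column could be turned back into whole reads (tolerance 1e-05). Recovered reads give the depth and were used for edgeR 4.0.16 and DESeq2 1.42.0, as alternatives. How strand and multi-mapping reads were handled is likewise not stated there.

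Features with a mean of at least 5 over the 8 libraries were fitted as log2(value + 1) in limma 3.58.1 under R 4.3.3, letting the spread follow the mean (trend), 1 fit per class, and called at a Benjamini-Hochberg adjusted p under 0.05. Differences are prenatal T minus control on this scale, which understates the change of low features. The steps were tested on simulated data. No pair of libraries within a group agreed within sampling noise. The labels name each sheep, so replicates are separate animals. Prenatal T and control sheep share no number, so no pairing exists within the depot. Across depots the labels pair the libraries of a sheep: after removing group means, libraries of 1 sheep had a median r of 0.17 (27 of 48 pairs over 0.1), against -0.02 between different sheep. Sheep as a block was the alternative in the tests between depots.

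The members, lists and rules were chosen with earlier results of these data known. Named are the 10 microRNAs, 4 snoRNAs, 4 snRNAs and 6 lncRNAs of smallest p, features called by edgeR, the most abundant features, and up to 4 members of each list (2 by p, 2 by level). Differences are given for features named by p or call, and levels for the others. Gene positions and overlaps come from the RefSeq table of assembly ARS-UI_Ramb_v3.0, which held every listed microRNA, 621 of 694 snoRNAs, 1010 of 1148 snRNAs and 1372 of 2973 lncRNAs. SnoRNAs and snRNAs were not grouped by type.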

Additional observations from a re-analysis of the deposited data

Results flagged for a closer look

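In 14 of the groups of 4 sheep checked among the named features, class shares and depths (11.5%), 1 sheep lay far from the other 3. Chance alone marks about 1 group in 20, and the features are not independent. Control 201, the library of the later set, was the far sheep in 7 of the 14: LOC114113420 (17.3 units against 4.53 to 5.46 in the other controls), LOC114110200 (85.5), LOC105611302 (112.8), MIR127 (3277), LOC105606646 (243.6), LOC114109215 (38.7) and LOC106990385 (858.2). Control 132 was the far sheep in 4, with the highest MIR411A (42.95 units), MIR21 (3111), MIR29A (4775) and MIR148A (9938) of the controls. Control 131 had the highest MIR133 (678.6 units), control 098 the lowest LOC114115071 (2.37) and prenatal T sheep 233 the lowest MIR26A (23796). The part of the library set or of any single animal in these values was not tested further than by leaving each sheep out.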

How the results depend on the processing

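The count of limma calls in subcutaneous fat was 0. It was 1 with a pseudocount of 5 and 1 without the trend (MIR3959 in each), and 2 (MIR3959 and MIR369) with equal reads of the class, with equal reads of all 4 classes and with edgeR; it ranged from 0 to 1 when sheep were left out in turn (MIR3959 without control 131, MIR369 without prenatal T sheep 255). The other alternatives gave 0, as did edgeR and DESeq2 on the early libraries alone, chosen after seeing the data. Leave-one-out edgeR counts, also added, ranged from 0 to 3, with 0 without control 098, control 201, prenatal T sheep 48 or prenatal T sheep 233, and with LOC114117060 called without control 131 (-1.27) and without prenatal T sheep 185 (-1.14). Over these alternatives, the added ones included, MIR3959 stayed positive in 32 of 32 fits (0.82 to 1.58, adjusted p 0.0224 to 0.997) and MIR369 in the 31 that held it (0.91 to 2.27, adjusted p 0.00835 to 0.784). No difference of a feature named by p or call changed sign. On the deposited scale the MIR3959 groups did not overlap, so leaving out a sheep could not change its sign. The fits share most libraries, and features named by p or call were chosen on the same data. The unchanged signs are therefore not independent evidence.

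With sheep as a replicate block, tests between depots again called 0 features, with 33, 12 and 18 at an unadjusted p under 0.05 against visceral, perirenal and epicardial fat, and the pairing changed no call. A library set term gave 46, 11 and 11, or 52, 18 and 13 together with the block, and again 0 calls. In subcutaneous fat itself, features at an unadjusted p under 0.05 numbered 6 to 25 with sheep left out, 6 with the library set term and 4 in the fit of all 32 libraries. BPA counts ranged from 0 to 5 when sheep were left out. The lncRNA share turned to 2.57 percentage points among reads outside microRNAs, and leaving out sheep gave -0.605 to -0.196 for snoRNAs, -0.892 to 0.226 for lncRNAs and -0.0385 to 0.00989 for snRNAs. The cause was not tested. Low reads limit MIR3959, MIR369 and most snoRNAs.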
